A study of Homo sapiens with 12 samples.

Results

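The genes described here are 38 components of the protein folding, entry and disposal machinery of the endoplasmic reticulum (ER), chosen by name for their role in the pathway, with earlier results of these data known, out of 20307 genes in the deposited table. They were grouped by role: 3 soluble chaperones, 2 lectin chaperones, 4 disulfide isomerases, 5 co-chaperones, the secreted proteins MANF and CRELD2, 8 genes of ER-associated degradation, the 3 stress sensors with the transcription factor XBP1, 7 subunits of the SEC61 channel and the translocon-associated protein (TRAP) complex, and 3 subunits of signal peptidase. Proteins that leave the cell or sit in its membranes enter the ER through the SEC61 channel, lose their signal peptide to signal peptidase, fold with the help of chaperones and disulfide isomerases, and are handed to the proteasome when they fail to fold. When unfolded protein builds up, the sensors IRE1 (gene ERN1), PERK (gene EIF2AK3) and ATF6 start the unfolded protein response, in which ATF6 and spliced XBP1 raise the transcription of chaperone and degradation genes while PERK slows translation and favours that of ATF4. Macrophages and carcinoma cells both secrete protein and both use this response.

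RNA sequencing covered 12 libraries, 3 in each of 4 groups, from 2 established human lines. H1299, a non-small-cell lung carcinoma line, had the genotype label WT in the control group and DCBLD2 overexpression in the other, and DCBLD2 is a transmembrane protein with neuropilin-like domains. THP-1, a line of monocytic leukaemia that the phorbol ester PMA turns into adherent macrophage-like cells, was WT in both of its groups, had PMA for 24 h, and then spent 48 h with H1299-Control or H1299-DCBLD2. The sample labels say supernatant where the design text says that the lines were grown together, so contact between them is not settled, and no label says how DCBLD2 was delivered or whether the WT group carried an empty construct.

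DCBLD2 went against its label. It stood at 247, 148 and 196 TPM (transcripts per 1000000) in H1299 labelled control and at 105, 98.2 and 92.5 TPM in H1299 labelled DCBLD2, a log2 fold change of -1.27 ± 0.17 (SE, adjusted p = 0.00284, edgeR quasi-likelihood test). The groups are therefore called labelled control and labelled DCBLD2, and every direction within a line below is that of labelled DCBLD2 against labelled control. If the labels had been exchanged, each of these directions, and that of the difference between the responses, would be reversed. The comparison between the lines would not be reversed, but its control groups would be other libraries. The files used here do not settle whether the labels were exchanged. Depth ranged from 14578887 to 23388187 estimated reads per H1299 library and from 18606739 to 26787853 per THP-1 library. The myeloid marker list summed to 8356 to 10040 TPM in THP-1 and to 139 to 202 TPM in H1299, where CD68 made up nearly all of it and PTPRC was at 0. Within H1299 the myeloid sum was 139 to 142 TPM in labelled control and 199 to 202 TPM in labelled DCBLD2 (2 of 4 tested genes higher, 1 lower). The carcinoma list summed to 3116 to 3376 TPM in H1299 labelled control and 3417 to 3865 TPM in labelled DCBLD2 (3 of 11 tested genes higher, 2 lower), with KRT19 and EPCAM below 1 TPM there, and to 174 to 221 TPM in THP-1, where KRT19 and EPCAM were at 0 and KRT8 and KRT18 at or below 1.63 TPM. KRT19 and EPCAM were thus low in both lines and do not separate them. CAV1 made up most of the THP-1 sum, at means of 146 TPM with labelled control and 110 TPM with labelled DCBLD2. TEAD1 in THP-1 lay within its range in H1299 labelled control. The part of these marker differences in the H1299 results was not tested. Replicates were far closer in THP-1 than in H1299, with a common biological coefficient of variation of 1.96% against 13.3%. Whether replicates were grown as separate cultures is not labelled, and the p-values therefore measure no more than the spread between libraries, which may be technical.

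Some of these genes share a promoter element. The ER stress response element (ERSE, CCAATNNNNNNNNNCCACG), a known binding site of NF-Y together with ATF6 or XBP1, was searched on both strands of the RefSeq promoter table of GRCh38.p14, whose windows run from 250 bases before to 50 bases after a start site. It was found in 7 of the 34 members with a window, or 20.6%, and in 25 of all 27305 genes of the table, or 0.0916%. ERSE-II (ATTGGNCCACG) was found in 3 members (8.82%, against 0.0696% of all genes), and the core of the unfolded protein response element (TGACGTGG) in 4 members, DNAJC10, HYOU1, SSR3 and SSR4 (11.8%, against 0.927%). The CCAAT box, which is contained in ERSE and, on the other strand, in ERSE-II, was present in 30 of the 34 members and in 39.7% of all genes. In HYOU1 the unfolded protein response element overlaps the farther ERSE-II. A match describes these letters in this window and does not show that a factor was bound. The members were chosen by name for their role in this pathway, so their larger shares are descriptions and no test. Members without a match in this window, such as MANF, may be targets of the response too. The ERSE and ERSE-II matches are printed below, with the motif in capitals and the sequence 5′ to 3′ on the strand of the gene. For HSPA5 120 bases of the promoter are shown.
HSPA5 (chr9:125241374-125241493, minus strand, ERSE): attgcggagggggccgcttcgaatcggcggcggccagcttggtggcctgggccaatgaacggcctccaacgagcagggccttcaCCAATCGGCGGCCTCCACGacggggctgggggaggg
HSP90B1 (chr12:103930211-103930239, plus strand, ERSE): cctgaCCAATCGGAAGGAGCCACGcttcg
HSP90B1 (chr12:103930316-103930344, plus strand, ERSE): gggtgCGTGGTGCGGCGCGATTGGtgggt
PDIA6 (chr2:10812848-10812876, minus strand, ERSE): ccggaCCAATGAGCCGCAGCCACGgcttg
CALR (chr19:12938369-12938417, plus strand, ERSE): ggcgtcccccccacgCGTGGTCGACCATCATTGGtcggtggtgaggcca
CANX (chr5:179698773-179698801, plus strand, ERSE): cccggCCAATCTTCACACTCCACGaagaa
XBP1 (chr22:28800598-28800626, minus strand, ERSE): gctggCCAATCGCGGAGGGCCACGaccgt
CRELD2 (chr22:49918539-49918587, plus strand, ERSE): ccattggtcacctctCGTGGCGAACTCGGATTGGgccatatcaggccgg
HYOU1 (chr11:119057365-119057405, minus strand, ERSE-II): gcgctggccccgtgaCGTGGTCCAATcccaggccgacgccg
HYOU1 (chr11:119057259-119057299, minus strand, ERSE-II): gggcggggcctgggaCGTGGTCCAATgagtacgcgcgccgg
HERPUD1 (chr16:56932020-56932040, plus strand, ERSE-II): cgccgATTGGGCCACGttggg
SDF2L1 (chr22:21642099-21642139, plus strand, ERSE-II): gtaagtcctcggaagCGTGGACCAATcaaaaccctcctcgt

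The 10 members with ERSE or ERSE-II are HSPA5, HSP90B1, HYOU1, CALR, CANX, PDIA6, SDF2L1, CRELD2, HERPUD1 and XBP1. In H1299, 4 of them were called, each higher, and 6 were not, beside 20.9% of all genes tested, and their median log2 fold change was 0.28. In THP-1, 8 were called, each lower, and 2 were not, beside 68.1% of all genes tested (33.6% lower), with a median of -0.18. The values of each follow by role.

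In H1299 labelled DCBLD2, the luminal chaperones HSPA5 and HSP90B1 rose to about double, and the channel subunit SEC61A1 and the signal peptidase subunit SPCS2 fell. In THP-1 kept with labelled DCBLD2, most chaperones, isomerases and sensors fell, HSPA5 from a mean of 889 to 474 TPM, and the small TRAP subunit SSR4 doubled. In bulk RNA, fewer cells with a transcript and less of it per cell cannot be told apart. Of the 38 members, all of which passed the filter on low counts, 7 were called higher and 2 lower in H1299 at an adjusted p under 0.05, and 29 were not called. Together that is 23.7% of the members, where 20.9% of the 12773 genes tested in H1299 were called (10.3% higher and 10.6% lower). The median log2 fold change was 0.23 over the members and 0.0047 over all genes tested. In THP-1, 8 members were called higher, 22 lower and 8 were not called. That is 78.9% of the members beside 68.1% of the 13120 genes tested (34.5% higher and 33.6% lower), with a median of -0.14 over the members and 0.00046 over all genes. Changes in THP-1 were mostly small: 5 members fell and 1 rose by at least 1.5-fold, against 9.92% and 11.3% of all genes. In H1299, 3 members changed that far, HSPA5, HSP90B1 and DNAJC10, each upward, against 6.15% higher and 5.7% lower of all genes. The TPM of the 2 groups did not overlap for 15 members that were higher and 5 that were lower in H1299 (17.6% and 19.9% of all genes), and for 7 and 22 members in THP-1 (29.9% and 35%). The heat map of single libraries shows these opposite blocks of rows.

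**Figure D1:**
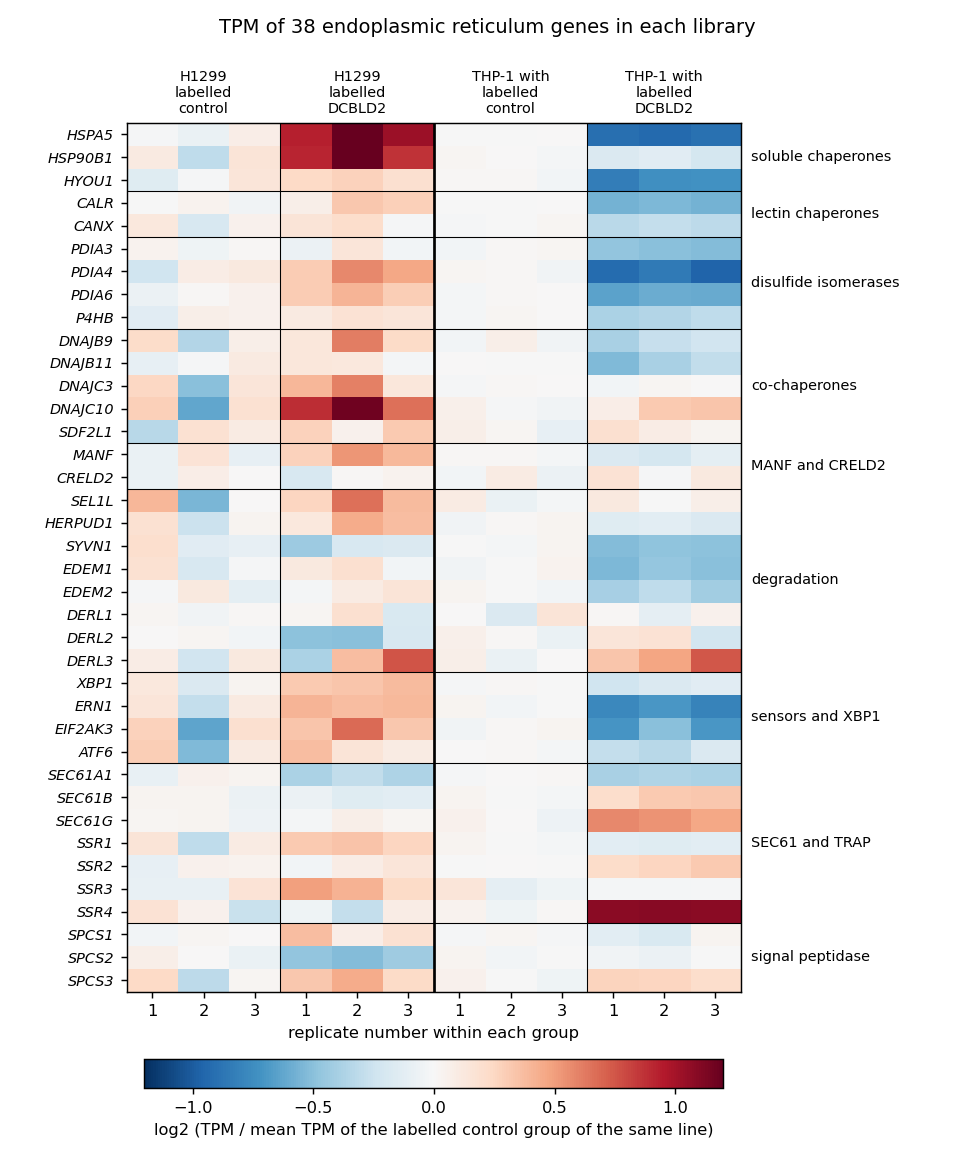
Level of each of the 38 genes (rows, ordered by role) in each of the 12 libraries (columns, by replicate number), as the log2 of its TPM over the mean TPM of the labelled control group of the same line; red is higher and blue lower. HSPA5 and HSP90B1 are red in the 3 H1299 libraries labelled DCBLD2, and HSPA5, HYOU1, PDIA4, ERN1 and EIF2AK3 are blue and SSR4 red in the 3 THP-1 libraries with labelled DCBLD2.

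The difference between the responses was tested as a contrast of the fold change in THP-1 minus that in H1299, in a fit of all 12 libraries. It was called for 25 members, 4 higher and 21 lower, which is 65.8% of them beside 38.7% of the 14244 genes tested (19.3% higher and 19.5% lower). At least 1.5-fold were 1 of the differences upward and 11 downward, against 12.9% and 11.9% of all genes. The median difference was -0.43 over the members and -0.03 over all genes. The responses in H1299 and THP-1 share no library. Of the 38 members, 22 had a fold change above 0 in H1299 and below 0 in THP-1, and the difference was called for 20 of these. HSPA5, HSP90B1, PDIA4, PDIA6, XBP1 and ERN1 were called higher in H1299 and lower in THP-1. DNAJC10 was called higher and SEC61A1 lower in both lines. These counts by sign were not made over all genes, and opposite signs in themselves favour a call of the difference.

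Single libraries decided much of the H1299 count. HSPA5 and HSP90B1 kept their calls under each alternative tried and without each library, whereas the other 7 lost theirs without at least 1. The count of 9 called members became 3, 2 and 5 when replicate 1, 2 or 3 of labelled DCBLD2 was left out, and 13, 7 and 5 when replicate 1, 2 or 3 of labelled control was left out. The share of all genes called moved too, from 20.9% to 10.6%, 4% and 14.9% without labelled DCBLD2 replicates 1, 2 and 3. Without labelled control replicates 1, 2 and 3 that share was 24.5%, 18.6% and 12.8%. The changes in the count are therefore not particular to the members. Labelled control replicate 2 had the lowest TPM of its group for 19 of the 38 members. In THP-1 the count moved between 28 and 32 when a library was left out. Under each alternative other than the 1.5-fold threshold, 11 of the 30 called members kept their calls: HSPA5, HYOU1, CALR, PDIA3, PDIA4, PDIA6, SYVN1, EDEM1, ERN1, EIF2AK3 and SSR4. With the wider spread of H1299 assumed for THP-1, 12 members were called, 2 higher (SSR4 and SEC61G) and 10 lower.

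**Figure D2:**
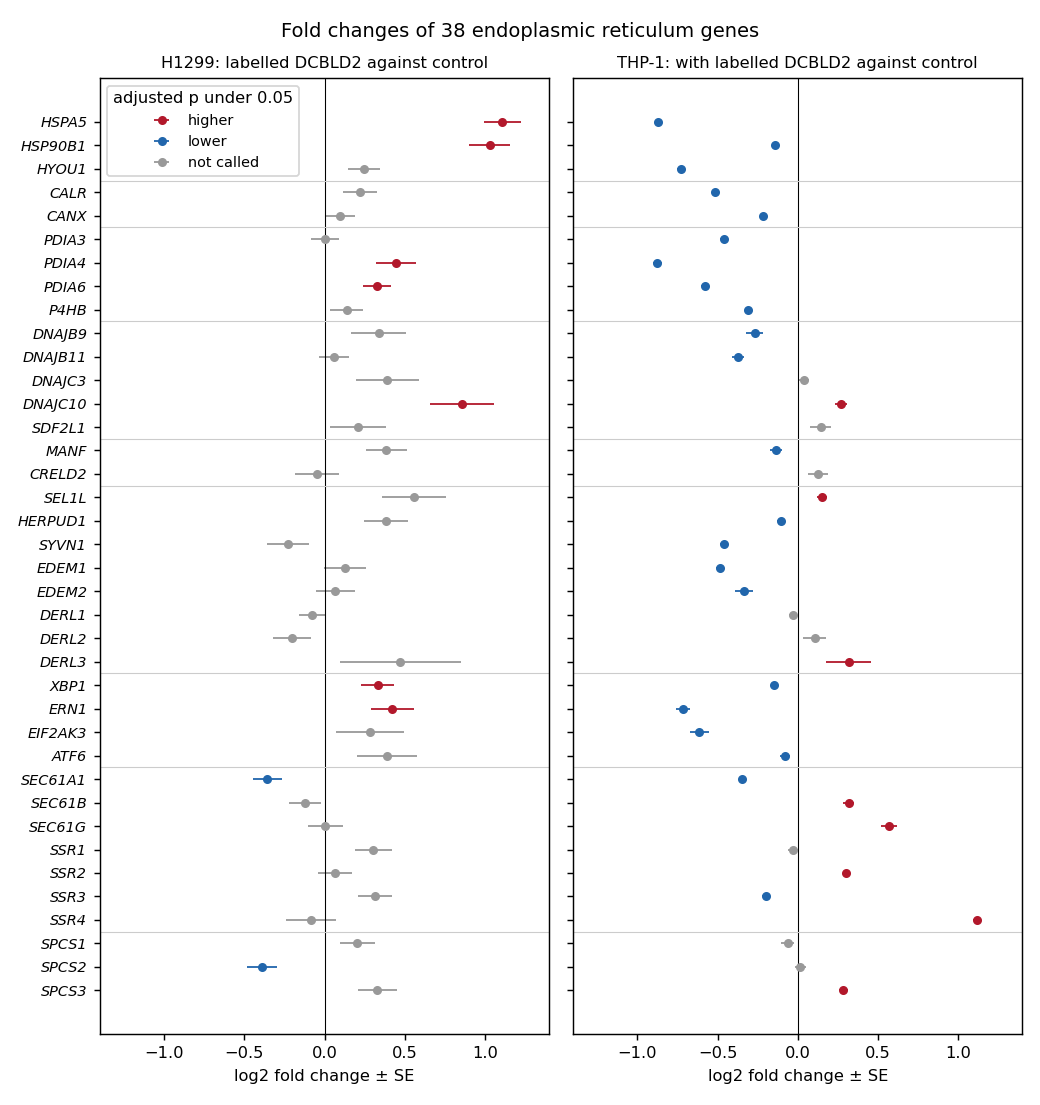
Log2 fold change (points) with its SE (bars) of the 38 genes in H1299 (left) and THP-1 (right), labelled DCBLD2 against labelled control, from edgeR; red was called higher, blue lower and grey not called. Most points of the upper 6 role groups lie right of 0 in H1299 and left of 0 in THP-1, and SSR4 lies farthest right in THP-1 at 1.11.

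The soluble chaperones bind exposed hydrophobic stretches of new proteins. HSPA5 encodes BiP, the HSP70 of the ER lumen, which also holds the sensors inactive (ENSG00000044574, chromosome 9, 125234853 to 125241330, minus strand of GRCh38). It was at 222, 212 and 237 TPM in H1299 labelled control, 428, 582 and 455 TPM in H1299 labelled DCBLD2, 888, 887 and 894 TPM in THP-1 with labelled control, and 476, 466 and 478 TPM in THP-1 with labelled DCBLD2. The groups did not overlap in either line, and the THP-1 cells with labelled DCBLD2 came down into the range of the H1299 cells labelled DCBLD2. The log2 fold change was 1.11 ± 0.11 (SE) in H1299 (adjusted p = 0.0008) and -0.87 ± 0.02 in THP-1 (adjusted p = 1.2e-24), and the difference between them was -1.99 ± 0.12 (adjusted p = 1.5e-07). It is the member with the largest difference, and its promoter carries the ERSE printed above.

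HSP90B1, which encodes the HSP90 of the ER known as GRP94 (ENSG00000166598, chromosome 12, 103930107 to 103953645, plus strand), was at 169, 127 and 174 TPM in H1299 labelled control and at 296, 380 and 286 TPM in H1299 labelled DCBLD2. In THP-1 it was at 232, 228 and 225 TPM with labelled control and at 202, 208 and 197 TPM with labelled DCBLD2. Its rise in H1299, 1.03 ± 0.13 (SE) on the log2 scale (adjusted p = 0.0019), was near that of HSPA5, while its fall in THP-1 was small, at -0.14 ± 0.02 (adjusted p = 2.4e-06). HYOU1, the HSP110 that exchanges nucleotides for BiP, was at 59.2, 64.9 and 72.7 TPM in H1299 labelled control and 77.2, 79.2 and 75.1 TPM in H1299 labelled DCBLD2, without overlap, yet its fold change of 0.24 ± 0.10 was not called (adjusted p = 0.11). In THP-1 it fell from 195, 195 and 189 TPM to 109, 116 and 116 TPM, by 0.73 on the log2 scale. The summed TPM of the 3 chaperones was 1.99 times its control level in H1299 and 0.602 times in THP-1.

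**Figure D3:**
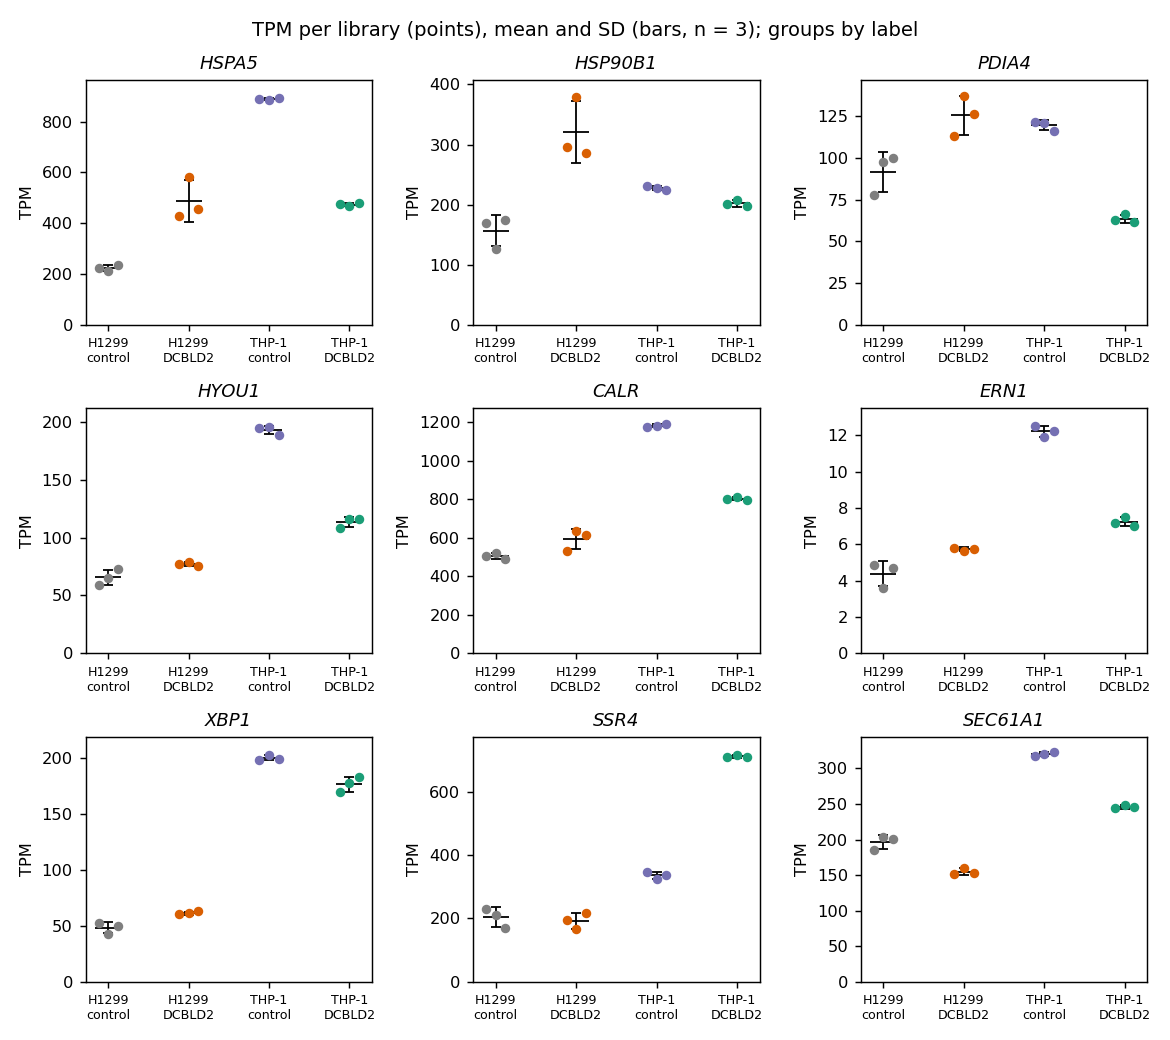
TPM of 9 members in each library (points) with the mean and SD of each group of 3 (bars), axes from 0; "control" and "DCBLD2" are the labels, which for THP-1 name the H1299 cells it was kept with. HSPA5 lies between 212 and 237 TPM in H1299 labelled control and between 887 and 894 TPM in THP-1 with labelled control, and SSR4 lies at 710 to 717 TPM in THP-1 with labelled DCBLD2, above its other groups.

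Calnexin and calreticulin hold glycoproteins by their sugar until they fold. CALR, the soluble form and the most abundant member in THP-1 with labelled control, was at 503, 521 and 491 TPM in H1299 labelled control, 532, 632 and 616 TPM in H1299 labelled DCBLD2, 1174, 1179 and 1188 TPM in THP-1 with labelled control, and 799, 810 and 797 TPM with labelled DCBLD2. It fell by 0.52 on the log2 scale in THP-1 (SE 0.02, adjusted p = 4.2e-20), and in H1299 the groups did not overlap but the change of 0.22 ± 0.10 was not called. CANX, the membrane form, fell from 347, 350 and 357 TPM to 281, 287 and 283 TPM in THP-1, by 0.22. In H1299 its groups overlapped, at 203 to 255 TPM and 231 to 270 TPM.

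The disulfide isomerases make and rearrange disulfide bonds. All 4 fell in THP-1 and 2 of the 4, PDIA4 and PDIA6, rose in H1299. PDIA4 (ENSG00000155660, chromosome 7, 149003062 to 149028641, minus strand), also known as ERp72, was at 78.0, 97.6 and 99.8 TPM in H1299 labelled control, 113, 137 and 127 TPM in H1299 labelled DCBLD2, 122, 121 and 116 TPM in THP-1 with labelled control and 62.9, 66.3 and 61.5 TPM with labelled DCBLD2. The groups did not overlap in either line. Its fold change was 0.44 ± 0.12 (SE, adjusted p = 0.033) in H1299, a call lost without 5 of the 6 libraries in turn, and -0.88 ± 0.03 (adjusted p = 3.6e-19) in THP-1, the largest fall among the members there. PDIA6 was at 170, 180 and 184 TPM and then 220, 236 and 219 TPM in H1299, and at 241, 247 and 245 TPM and then 156, 161 and 161 TPM in THP-1. Its changes were 0.33 ± 0.09 (adjusted p = 0.029, lost without 4 of the 6 libraries) and -0.58 ± 0.02 (adjusted p = 2.4e-18), and 25.2% of its exonic bases are shared with a gene on the other strand. PDIA3, the partner of the lectin chaperones, was level in H1299 at 301 to 321 TPM and 297 to 345 TPM, and fell in THP-1 from between 405 and 421 TPM to between 288 and 299 TPM. P4HB, the founding isomerase and a subunit of prolyl hydroxylase, fell by 0.31 in THP-1, from a mean of 837 TPM to 659 TPM, and its change of 0.14 ± 0.10 in H1299 was not called.

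The co-chaperones of BiP did not move together. DNAJC10, a J-domain reductase that cuts disulfide bonds ahead of degradation, was called higher in both lines. It was at 22.7, 12.1 and 21.1 TPM in H1299 labelled control and 34.6, 41.8 and 29.5 TPM in H1299 labelled DCBLD2. That change of 0.86 ± 0.20 (SE, adjusted p = 0.018) lost its call without labelled DCBLD2 replicate 2. In THP-1 it was at 12.5, 11.8 and 11.6 TPM and then 12.7, 14.9 and 15.1 TPM, a change of 0.27 ± 0.04. DNAJB11, a co-chaperone that loads clients onto BiP, fell in THP-1 from between 94.3 and 94.9 TPM to between 65.6 and 77.1 TPM, by 0.37, and DNAJB9 fell by 0.27. DNAJC3 was at 26.6, 27.0 and 26.9 TPM in THP-1 with labelled control and 26.3, 27.2 and 26.9 TPM with labelled DCBLD2, so the groups overlapped. SDF2L1, a partner of DNAJB11, was not called in either line, at a mean of 44.0 TPM and 47.3 TPM in THP-1. In H1299 DNAJB9, DNAJB11, DNAJC3 and SDF2L1 were not called, with fold changes between 0.06 and 0.39.

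MANF and CRELD2 are small ER proteins that the stress response induces and that can be secreted. MANF was at 73.0, 86.1 and 72.1 TPM in H1299 labelled control and 93.1, 111 and 101 TPM in H1299 labelled DCBLD2, without overlap, but its change of 0.39 ± 0.13 was not called (adjusted p = 0.055). DESeq2 called it. In THP-1 it fell by 0.14, from between 114 and 116 TPM to between 99.7 and 107 TPM. CRELD2, with an ERSE of its own, was not called in either line, at means of 21.6 and 21.1 TPM in H1299 and 33.5 and 35.8 TPM in THP-1.

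Of the 8 degradation genes, edgeR called 0 in H1299, where 2 (SEL1L and HERPUD1) had an unadjusted p under 0.05. DESeq2 called these 2 higher, and limma on TPM called 1, DERL2, lower. In THP-1, 4 of them fell, 2 rose and 2 were not called. SYVN1, the ubiquitin ligase also called HRD1, fell in THP-1 from 84.9, 84.0 and 87.3 TPM to 59.4, 61.1 and 60.8 TPM, by 0.46 ± 0.03 (SE) on the log2 scale. EDEM1, a mannosidase-like protein that marks misfolded glycoproteins, fell from 52.5, 53.8 and 55.7 TPM to 37.3, 39.1 and 38.1 TPM, by 0.49 ± 0.02, and its relative EDEM2 fell by 0.33. HERPUD1, which organises the ligase complex, fell less, from between 161 and 169 TPM to between 147 and 152 TPM, by 0.11. SEL1L, the adaptor of SYVN1, was called higher by 0.15 ± 0.03, although its TPM overlapped, at 23.4 to 26.5 TPM and 24.7 to 26.8 TPM, and limma on TPM did not call it.

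The derlins are membrane proteins that thin the bilayer for clients on their way out. DERL1 and DERL2 were not called in either line. With an offset for transcript length, described further on, edgeR called both lower in THP-1, DERL1 by 0.30 (adjusted p = 2.0e-11) and DERL2 by 0.31 (adjusted p = 0.00023). These falls rest on lengths of 918 and 657 bases, medians of annotated transcripts, out of 7081 and 6386 exonic bases. Whether transcripts of that length were the ones counted was not tested. DERL3 was rare, at 1.19 TPM ± 0.153 (SD, n = 3) in H1299 labelled control and at 4.50, 4.06 and 4.31 TPM and then 5.40, 5.97 and 7.17 TPM in THP-1. Its rise in THP-1 of 0.32 ± 0.14 (adjusted p = 0.047) lost its call without 4 of the 6 libraries in turn, and 77.0% of its exonic bases are shared with SMARCB1 on the opposite strand, so its counts are uncertain.

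All 3 sensors and XBP1 fell in THP-1, and ERN1 and XBP1 rose in H1299. ERN1, which encodes the sensor IRE1 (ENSG00000178607, chromosome 17, 64039142 to 64130819, minus strand), was at 4.84, 3.58 and 4.70 TPM in H1299 labelled control, 5.82, 5.64 and 5.74 TPM in H1299 labelled DCBLD2, 12.5, 11.9 and 12.2 TPM in THP-1 with labelled control and 7.16, 7.52 and 7.03 TPM with labelled DCBLD2. The changes were 0.42 ± 0.13 (SE, adjusted p = 0.048) and -0.72 ± 0.04 (adjusted p = 1.8e-13). XBP1, the transcription factor whose mRNA IRE1 splices, was at 52.8, 43.0 and 49.5 TPM and then 60.3, 61.0 and 62.9 TPM in H1299, and at 198, 203 and 199 TPM and then 169, 177 and 183 TPM in THP-1 (ENSG00000100219, chromosome 22, 28794555 to 28800597, minus strand). Its changes were 0.33 ± 0.10 (adjusted p = 0.049) and -0.15 ± 0.02 (adjusted p = 8.1e-06). The H1299 calls of ERN1 and XBP1 lie just under the threshold and were each lost without 5 of the 6 libraries in turn. Gene-level counts do not separate spliced from unspliced XBP1.

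EIF2AK3, which encodes PERK, fell in THP-1 from 12.3, 12.7 and 12.8 TPM to 7.72, 8.87 and 7.74 TPM, by 0.62 ± 0.06 on the log2 scale, and was not called in H1299, where labelled control replicate 2 stood apart at 1.90 TPM beside 3.56 and 3.35 TPM. ATF6 was at 42.1, 42.4 and 41.2 TPM in THP-1 with labelled control and 34.5, 33.3 and 37.1 TPM with labelled DCBLD2. Its change in counts was only -0.08 ± 0.03 (adjusted p = 0.039), and it lost its call without 4 of the 6 libraries in turn. The summed TPM of the 4 genes was 1.25 times its control level in H1299 and 0.85 times in THP-1.

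The channel and TRAP subunits split. SEC61A1, the pore of the channel, fell in both lines: from 185, 203 and 201 TPM to 151, 160 and 152 TPM in H1299 and from 317, 320 and 323 TPM to 244, 248 and 245 TPM in THP-1. The groups overlapped in neither line. The changes were -0.36 ± 0.09 (SE, adjusted p = 0.025, lost without 4 of the 6 libraries) and -0.35 ± 0.02 (adjusted p = 1.5e-15), with a difference of 0.00 ± 0.09. The small subunits went the other way in THP-1, where SEC61G rose from 116, 113 and 107 TPM to 167, 163 and 154 TPM, by 0.57, and SEC61B from 224, 217 and 215 TPM to 254, 272 and 275 TPM, by 0.32. With an offset for transcript length, described further on, SEC61G lost its call (0.03, adjusted p = 0.613) and SEC61B turned to -0.16 (adjusted p = 0.0008). In H1299 neither was called, at 139 to 148 TPM and 143 to 152 TPM for SEC61G and at 230 to 247 TPM and 219 to 230 TPM for SEC61B.

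SSR4 encodes the delta subunit of TRAP, which sits beside the channel and helps some signal sequences to enter (ENSG00000180879, chromosome X, 153793516 to 153798505, plus strand). It was at 231, 212 and 169 TPM in H1299 labelled control, 196, 167 and 217 TPM in H1299 labelled DCBLD2, 346, 324 and 339 TPM in THP-1 with labelled control, and 711, 717 and 710 TPM with labelled DCBLD2. The H1299 groups overlapped and the THP-1 groups lay far apart. The change was -0.08 ± 0.16 (SE, adjusted p = 0.73) in H1299 and 1.11 ± 0.03 (adjusted p = 2.3e-22) in THP-1, and the difference was 1.19 ± 0.17 (adjusted p = 9.8e-05), the largest in that direction among the members. Of the other TRAP subunits only SSR2, the beta subunit, was called higher in THP-1 as well, and by less. It rose by 0.30, from between 671 and 677 TPM to between 784 and 839 TPM. SSR1, the alpha subunit, was not called there, and SSR3, the gamma subunit, was called lower by 0.20 although its TPM overlapped, at 127 to 151 TPM and 134 to 135 TPM. In H1299 edgeR called none of SSR1, SSR2 and SSR3, with changes of 0.30, 0.07 and 0.32, and DESeq2 called SSR3 higher.

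Signal peptidase changed little. SPCS2 fell in H1299 from 105, 101 and 94.8 TPM to 72.4, 69.8 and 74.8 TPM, a change of -0.39 ± 0.09 (SE, adjusted p = 0.019) that lost its call without labelled DCBLD2 replicate 1 or 2, and was not called in THP-1, at 94.9 to 99.7 TPM and 92.5 to 97.1 TPM. SPCS3 rose in THP-1 from 46.5, 44.8 and 43.5 TPM to 54.2, 53.9 and 52.1 TPM, by 0.28, and its change of 0.33 ± 0.12 in H1299 was not called. SPCS1 was not called in either line, and 50.7% of its exonic bases are shared with a gene on the opposite strand. The sum of the 3 subunits was 1.01 times its control level in H1299 and 0.993 times in THP-1.

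**Figure D4:**
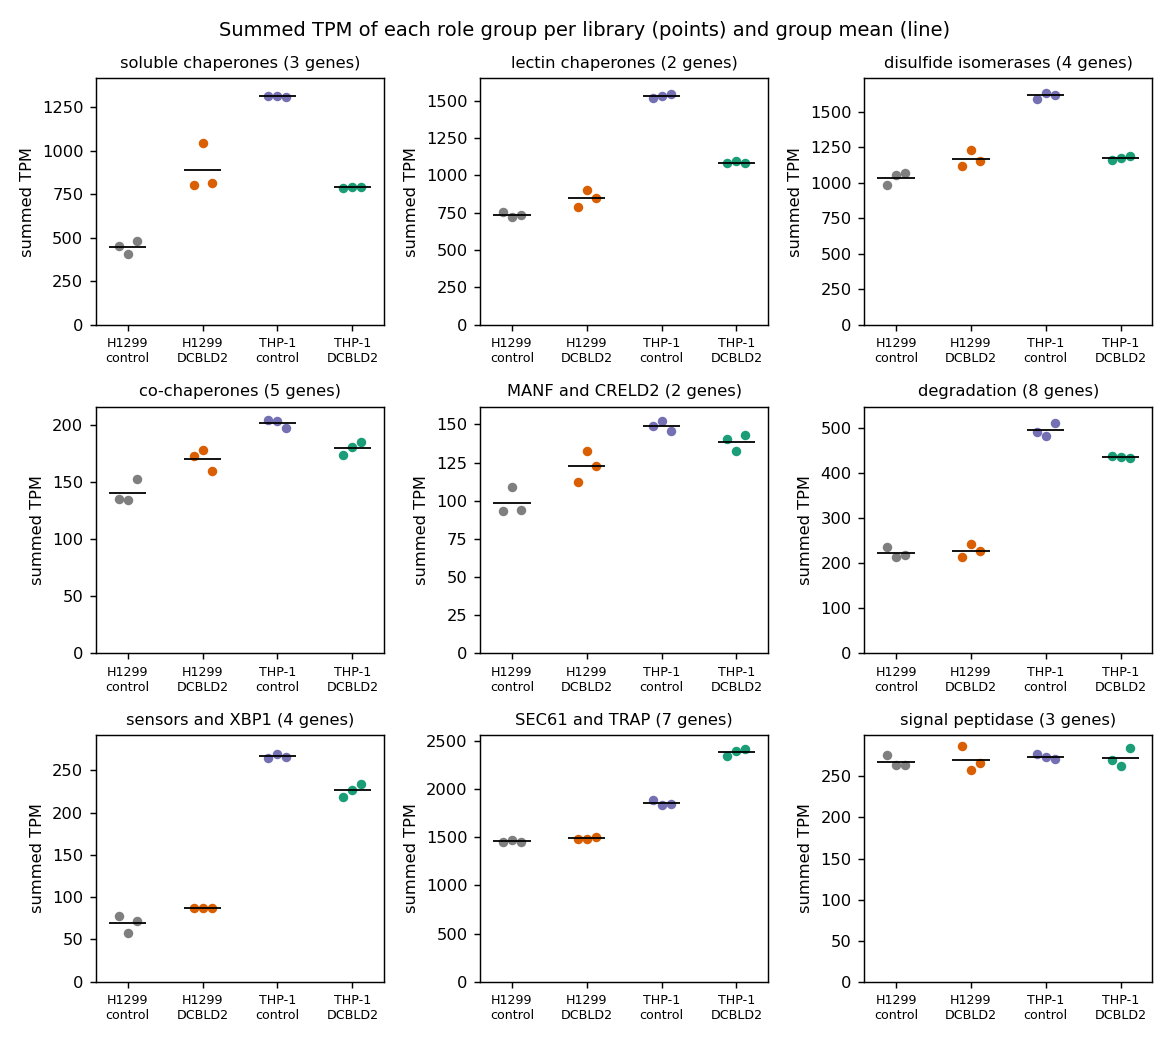
Summed TPM of each of the 9 role groups in each library (points) with the group mean (line), axes from 0. The soluble chaperones go from 404 to 484 TPM up to 801 to 1041 TPM in H1299 and from 1307 to 1314 TPM down to 786 to 792 TPM in THP-1, SEC61 and TRAP go up in THP-1 from 1834 to 1885 TPM to 2346 to 2410 TPM, and signal peptidase stays between 258 and 287 TPM in the 12 libraries.

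The share of all TPM held by the 38 genes was 0.443 to 0.454% in H1299 labelled control and 0.507 to 0.555% in H1299 labelled DCBLD2. It was 0.769 to 0.771% in THP-1 with labelled control and 0.661 to 0.675% with labelled DCBLD2. Between the labelled control groups the share in THP-1 was 1.72 times that in H1299.

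Other measures moved with the THP-1 groups. Mitochondrially encoded genes took 3.48 to 3.51% of counts with labelled control and 2.46 to 2.58% with labelled DCBLD2, and ribosomal protein genes 3.73 to 3.75% and 5.14 to 5.42%. The myeloid list summed to 8356 to 8414 TPM and 9856 to 10040 TPM (7 of its 12 genes higher, 4 lower), and the carcinoma list to 206 to 221 TPM and 174 to 183 TPM (3 of 8 tested genes higher, 3 lower). Fold changes also went with transcript length. Over all genes tested in THP-1 the median log2 fold change was 0.20 in the lowest of 5 bins of transcript length, with a median length of 1072 bases, and -0.06 in the highest bin, at 5803 bases. In H1299 it went the other way, from -0.08 to 0.16. The members that rose in THP-1 had a median transcript length of 944 bases and those that fell 2809 bases, and Spearman's rho between length and fold change was -0.559 over the 38 members in THP-1 and 0.356 in H1299, points that share their libraries. With the trend of each library on length taken out, an alternative chosen after seeing the data, 5 members were called higher and 26 lower in THP-1, and 25 of the 30 calls kept call and direction. SSR4 (0.73) and SPCS3 (0.35) remained higher and HSPA5 (-0.81), PDIA4 (-0.82), HYOU1 (-0.67) and ERN1 (-0.66) lower, while the rises of SEC61G (0.03, adjusted p = 0.613), SSR2 (0.01, adjusted p = 0.586) and DERL3 (0.10, adjusted p = 0.545) and the fall of ATF6 (-0.04, adjusted p = 0.288) lost their calls and SEC61B turned to -0.16 (adjusted p = 0.0008). Newly called in THP-1 with this offset were DNAJC3 (0.10), higher, and DERL1 (-0.30), DERL2 (-0.31), SPCS1 (-0.31) and SDF2L1 (-0.15), lower. The length used was the median of annotated transcripts, for HSP90B1 1338 bases, out of 4695 exonic bases in all. For DERL1, DERL2, SPCS1 and SSR3 it was 918, 657, 957 and 807 bases, out of 7081, 6386, 5324 and 4627. Whether these are the lengths of the transcripts counted was not tested, so the changes with the offset in these genes are uncertain. The part of the mitochondrial, ribosomal and marker measures in these results was not tested.

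**Figure D5:**
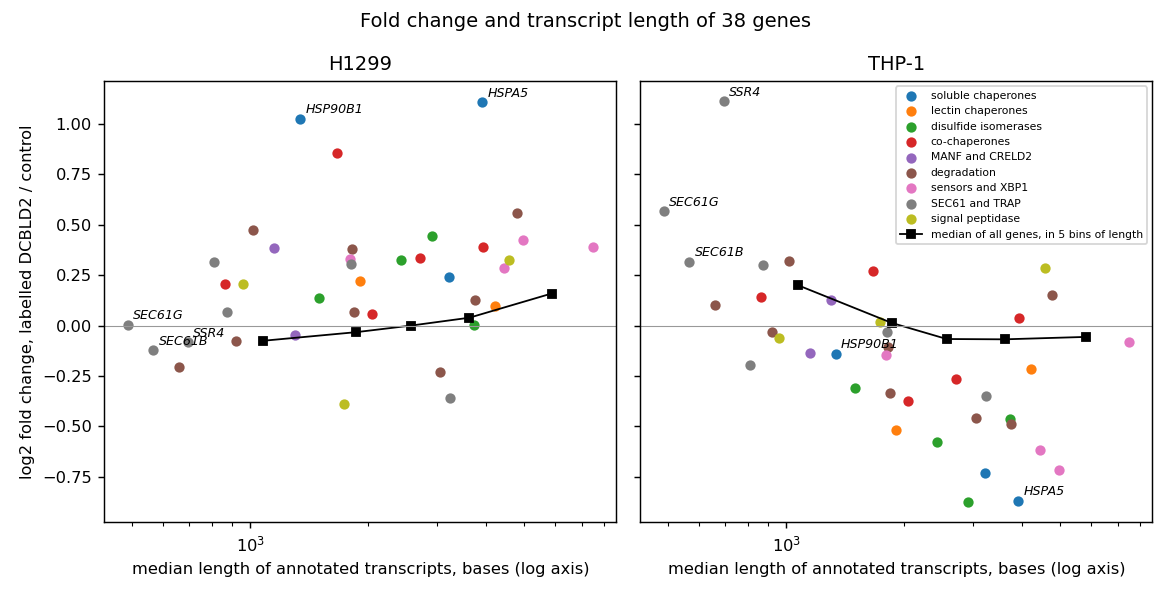
Log2 fold change of the 38 genes (points, coloured by role) against the median length of their annotated transcripts (log axis) in H1299 and THP-1, with the median of all genes tested in each of 5 bins of length (black squares). In THP-1 the black line drops from 0.20 to -0.06, with SSR4 and SEC61G high at the left and HSPA5 low at 3908 bases. Longer members there lie on both sides of 0, among them ERN1 (-0.72), ATF6 (-0.08) and SPCS3 (0.28). In H1299 the black line climbs from -0.08 to 0.16.

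Between the lines, most members stood higher in THP-1 with labelled control than in H1299 labelled control. Of the 38 members, 31 were called higher in THP-1, 4 lower (DNAJC10, EDEM2, SSR1 and SSR3) and 3 not called (DERL2, SEC61B and SEC61G). That is 92.1% called beside 85.9% of the 14244 genes tested (42.3% higher and 43.6% lower). The call of DNAJC10 (edgeR, adjusted p = 0.049), whose TPM overlapped, was lost without 11 of the 12 libraries in turn. SSR1 lost its call without 7 of them, and SSR3 turned to 0.08 with the length offset. By at least 1.5-fold 28 were called, each higher in THP-1, against 35.5% higher and 36% lower of all genes. The median log2 difference was 0.89 over the members and -0.03 over all genes. The largest were EDEM1, at a mean of 6.37 TPM in H1299 and 54.0 TPM in THP-1 (3.40 ± 0.08, SE), DNAJC3, at 3.56 and 26.8 TPM (3.21 ± 0.14), and HERPUD1, at 27.7 and 166 TPM (2.86 ± 0.09). SYVN1 (2.48), XBP1 (2.32), HSPA5 (2.27), EIF2AK3 (2.27), ERN1 (1.90) and ATF6 (1.93) were also well above H1299, while the channel subunits SEC61B (0.13) and SEC61G (-0.09) were not called. Line, PMA and culture cannot be told apart here. Upper-quartile scaling moved the median of all genes from -0.03 to -0.25 and that of the members from 0.89 to 0.67, with 29 called higher and 6 lower.

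Other ER genes were counted by function, and their shares stand beside the 20.9% of all genes called in H1299 and the 68.1% called in THP-1. Of 52 tested genes of other folding factors in H1299, 6 were called (11.5%), each higher, led by the isomerase PDIA5 (0.93 ± 0.13, SE), the cargo receptor LMAN1 (1.05 ± 0.16) and TXNDC12 (0.32 ± 0.09). In THP-1, 13 of 50 were higher and 25 lower (76% called), with falls of the isomerase TXNDC5 (-0.80), the calcium binding protein CALU (-0.53) and the glucosidase subunit GANAB (-0.41). PDIA5 went from 13.0 to 24.8 TPM in H1299 and from 22.8 to 15.9 TPM in THP-1 in group means, and its difference was -1.43 ± 0.14 (adjusted p = 8.4e-06).

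Of 37 other degradation genes, 2 were higher and 4 lower in H1299 (16.2% called), among the latter FOXRED2 (-0.79), SELENOS (-0.63) and TMEM129 (-0.63), and 12 were higher and 13 lower in THP-1 (67.6% called), where the ATPase VCP, which pulls clients from the membrane, fell from a mean of 303 TPM to 211 TPM (-0.48 ± 0.02). Of 44 other translocation and glycosylation genes, 4 were higher and 4 lower in H1299 (18.2% called), with TRAM2 (-0.56), EMC10 (-0.56) and EMC2 (0.69) first. In THP-1, 22 of 43 were higher and 13 lower (81.4% called), with a rise of the small oligosaccharyltransferase subunit OST4 (0.74 ± 0.03) and falls of its catalytic subunit STT3A (-0.40) and of the signal recognition particle receptor SRPRA (-0.39). Of 20 genes of export from the ER in COPII coats, 5 were called in H1299 (25%), each higher, led by MIA3 (0.83), SEC24A (0.68) and SEC24D (0.65), and 7 were higher and 9 lower in THP-1 (80% called), with SEC23B at -0.57, SEC16A at -0.40 and SEC24C at -0.32.

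The list named for the PERK branch holds ATF4 and its targets. The activity of PERK was not measured, and RNA of these genes does not stand for it. Of 15 genes, 10 were called higher and 4 lower in THP-1, beside 34.5% and 33.6% of all genes, and the median log2 fold change was 0.60. ATF4 rose from a mean of 568 TPM ± 6.89 (SD, n = 3) to 971 TPM ± 5.14 (0.81 ± 0.02, SE), and ASNS, the asparagine synthetase that ATF4 controls, from 32.8 to 77.8 TPM (1.33 ± 0.04). ATF3, another stress-induced factor, fell from 640 TPM ± 14.4 to 330 TPM ± 4.13 (-0.84 ± 0.02). In H1299, 2 of 14 were called (14.3%, beside 20.9% of all genes), 1 higher, ASNS (1.23 ± 0.23, SE), and 1 lower, ATF5 (-0.93 ± 0.15). ATF4 was at 452 TPM ± 54.4 and 410 TPM ± 33.6 in the H1299 groups, and the difference between its responses was 0.94 ± 0.10 (adjusted p = 1.1e-05).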

How the data were processed

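Per the labels, Trizol was used for extraction and a NEBNext Ultra kit for libraries of mRNA. The submitters' processing notes name hg38, RSEM, StringTie 1.3.1, HISAT2, Bowtie2 2.2.8 and fastp 0.18.0. Whether counting used strand is not given in the sources used here, nor is the annotation release, and counts of genes that share exons with an opposite-strand gene are uncertain. The authors deposited estimated counts, not normalized, and TPM per gene for 12 libraries, 20307 genes in all, of which 605 have no symbol.

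Estimated counts were rounded and tested with edgeR 4.0.16 (R 4.3.3; quasi-likelihood test, TMM scaling, filterByExpr with a minimum of 10 counts), in 1 fit per line and in a fit of all 12 libraries for the difference of responses and between lines. Benjamini-Hochberg adjustment ran over all genes tested, and called means an adjusted p under 0.05. SE is the fold change over the root of the F statistic. TPM describe levels (SD, n = 3). Lengths and positions come from GENCODE 29 (GRCh38), in which 98.9% of the genes were found, and promoters from RefSeq. No pair of libraries held identical values, and the procedure was tested on simulated counts. Whether replicate numbers pair the libraries is not settled.

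The members and lists were chosen with earlier results of these data known, and counts over them are descriptions. All members may be named; of each other list, up to 3 called genes with the smallest p-values per comparison, and DCBLD2. Alternatives were a replicate block, DESeq2 1.42.0, its size factors, upper-quartile scaling, other filters, robust spread, limma 3.58.1 on log2(TPM + 1) and log2(TPM + 0.1), a 1.5-fold threshold, all libraries in 1 fit, the H1299 spread for THP-1, group weights, leaving out each library and, added after seeing the data, an offset for transcript length.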

Additional observations from a re-analysis of the deposited data

Results flagged for a closer look

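For 25 members the response to the label differed between the lines by the test of the difference itself (edgeR, all 12 libraries, log2 fold change in THP-1 minus that in H1299, n = 3 per group). Every value here is that difference. Lower in THP-1 than in H1299 were the chaperones HSPA5 (-1.99), HSP90B1 (-1.18), HYOU1 (-0.98), CALR (-0.75) and CANX (-0.33). So were the isomerases PDIA4 (-1.33), PDIA6 (-0.92), PDIA3 (-0.48) and P4HB (-0.46). Among co-chaperones and secreted proteins these were DNAJB9 (-0.62), DNAJC10 (-0.60), DNAJB11 (-0.44) and MANF (-0.53), and among degradation genes EDEM1 (-0.63), HERPUD1 (-0.50) and EDEM2 (-0.41). The sensors and their factor gave ERN1 (-1.15), EIF2AK3 (-0.92) and XBP1 (-0.49), and the TRAP subunits SSR3 (-0.52) and SSR1 (-0.35). Higher in THP-1 were SSR4 (1.19), SEC61G (0.55), SEC61B (0.43) and SPCS2 (0.40). DNAJC10 lies at the threshold (adjusted p = 0.048). Of the 25, 17 kept their call and direction without each library and under each alternative other than the 1.5-fold threshold. The exceptions were CANX, DNAJB9, DNAJC10, MANF, EDEM2, SEC61B, SEC61G and SSR1.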

How the results depend on the processing

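There were 9 called members in H1299, 30 in THP-1, 25 for the difference and 35 between lines. Of these, 2, 11, 17 and 30 kept call and direction without each library and under each alternative other than the 1.5-fold threshold. That threshold left 28 between lines, and its other counts follow. The count of called members in H1299 was 5 with the replicate number as a block, 3 at 1.5-fold or more and 20 in the fit of all 12 libraries, and 2 to 13 without each library in turn. Deviations of same-numbered libraries from their group means had r of -0.104, -0.218 and -0.211 in H1299 and 0.0277, 0.0407 and 0.0417 in THP-1. Labelled control replicates 1, 2 and 3 gave 0.216, 0.278 and 0.203 with labelled DCBLD2 replicates 2, 3 and 1. Deviations within a group of 3 balance each other, so these r cannot settle whether libraries were paired. The block pairs by number only. In THP-1 the count was 6 at 1.5-fold or more and 12 with the H1299 spread, and 28 to 32 without each library; the difference gave 12 at 1.5-fold or more and 21 to 28 without each library, and the lines 33 to 36. With the block the counts were 31 in THP-1, 24 for the difference and 33 between lines. DERL3 had the lowest level of the members, at a mean of 1.19 TPM in H1299 labelled control. The cause of the changes below was not tested.

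Signs turned as follows, in log2. In H1299, PDIA3 was -0.000527 with the replicate block, -0.0204 with upper-quartile scaling and -0.0596 with the length offset; SEC61G was -0.0176 with upper-quartile scaling; DERL1 was 0.00941 and 0.00943 in limma on TPM with pseudocounts of 1 and 0.1 and 0.00752 with the length offset, which gave CRELD2 0.0211. In THP-1, limma with those pseudocounts gave DNAJC3 -0.00275 and -0.00285 and SPCS2 -0.0398 and -0.0402, and the length offset gave SDF2L1 -0.148, DERL2 -0.307, SEC61B -0.158 and SPCS2 -0.0165. For the difference, SEC61A1 was 0.0171 in DESeq2 and with its size factors, 0.0169 with upper-quartile scaling, 0.00811 without a filter and 0.136 with the length offset; limma gave DERL1 -0.0184 at both pseudocounts and DERL3 0.272 and 0.264; the length offset gave CRELD2 -0.0099, DERL1 -0.292, DERL2 -0.162, SEC61B -0.0707, SSR2 -0.117 and SPCS3 0.107. Between lines, SEC61B was -0.0935 with upper-quartile scaling, and limma gave SEC61B -0.141 and -0.142, SPCS1 -0.00511 and -0.00514 and SPCS2 -0.0418 and -0.0421; the length offset gave DERL2 0.30, SEC61G 0.498 and SSR3 0.0756. Without each library in turn, signs turned in H1299 for PDIA3 (-0.0361 to 0.0362), CRELD2 (-0.134 to 0.0195), EDEM2 (-0.0148 to 0.157), SEC61G (-0.0498 to 0.0473), SSR4 (-0.219 to 0.0365) and SSR2 (-0.0142 to 0.117), in THP-1 for SPCS2 (-0.00918 to 0.0513), for the difference for SDF2L1 (-0.165 to 0.150), SEC61A1 (-0.0202 to 0.129), SPCS3 (-0.100 to 0.0915) and DERL3 (-0.299 to 0.337), and between lines for SEC61G (-0.131 to 0.00467).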
